A study of Homo sapiens with 8 samples.

Results

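Simple and basal epithelial keratins were followed in the isogenic ovarian cancer cells UWB1.289, which carry a BRCA1 mutation (BRCA1-null), and in UWB1.289 cells in which BRCA1 had been restored by transduction (BRCA1+). The keratins were chosen by name as 10 genes: KRT7, KRT8, KRT18, KRT19, KRT80, KRT5, KRT6A, KRT14, KRT15 and KRT17. They are 10 of the 25369 named genes in the table of counts. Cells of each line were given DMSO as the control or 0.5 µM entinostat for 24 h. Entinostat is an inhibitor of class I histone deacetylases. The 4 groups were BRCA1+ control, BRCA1+ entinostat, BRCA1-null control and BRCA1-null entinostat, with 2 poly(A) RNA libraries in each. All 4 groups were grown in the same medium and come from 1 tumour cell line and its transduced derivative. The labels do not say that the 2 libraries of a group came from separate cultures, so each p-value measures the spread between these libraries, which may be technical.

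Keratins are the intermediate filament proteins of epithelial cells. A filament is built from pairs of an acidic type I keratin and a basic type II keratin, and the partner genes are normally expressed together. KRT8 and KRT18 are the founding pair of simple, single-layered epithelia, where KRT7 (type II) and KRT19 (type I) join them in ducts and in the Müllerian epithelium from which serous ovarian cancer is thought to arise. KRT5 with KRT14 and KRT15 marks the basal layer of stratified epithelia, and KRT6A with KRT17 is switched on in wounded or hyperproliferative epithelium. KRT80 is a type II keratin found in many epithelia.

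In the build of the table, hg19, the type II members and KRT18 lie on chromosome 12 and the other type I members on chromosome 17. The 6 members on chromosome 12 span 783906 bases, from KRT80 (chr12:52562780-52585784, minus strand) to KRT18 (chr12:53342655-53346685, plus strand). The 4 members on chromosome 17 span 110886 bases, from KRT15 (chr17:39669997-39675270) to KRT17 (chr17:39775692-39780882), all on the minus strand. KRT8 (chr12:53290971-53343650, minus strand) overlaps the start of KRT18 by 996 bases on the opposite strand. Whether the counting used strand is not given in the sources used here, so reads within that overlap cannot be told apart.

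Keratin messages share long stretches, which matters for counts per gene. Coding sequences were compared in GENCODE v44 transcripts lifted to GRCh37, the same assembly as hg19. Over the whole coding sequence KRT6A was 97.9% identical to KRT6C and 97.5% identical to KRT6B, with identical runs of up to 349 and 269 bases in the messages. KRT14 was 85.2% identical to KRT16 and 78.2% identical to KRT17. KRT7 and KRT8 were 69.2% identical, and KRT18 and KRT19 were 57.7% identical. The annotation also lists 51 pseudogenes named after KRT8, 67 after KRT18, 8 after KRT17 and 5 after KRT19. How reads with several matches were counted is not given in the sources used here, so values of KRT6A, KRT14 and KRT17 are uncertain where near-identical copies could take their reads. RefSeq promoter windows (GRCh38.p14, from 250 bases before the start) were matched for KRT5 (chr12:52520345-52520644) and KRT8 (chr12:52926420-52926719). By its distance from the KRT5 window, the KRT8 window lies inside the KRT8 gene as counted and not at its 5' end. Other starts were not examined, and whether these cells use the starts matched was not tested. On either strand, neither window held the TATA box TATAAA (found in 11.5% of 35116 promoters), the AP-1 motif TGANTCA (found in 7.71%), the GC box GGGCGG (found in 45.0%) or the CCAAT box (found in 34.6%).

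Libraries held 31900158 to 53549893 counts. The BRCA1 gene checked the labels: BRCA1+ libraries had 3954 and 4239 counts with DMSO and 4233 and 5473 with entinostat, whereas BRCA1-null libraries had 954 and 1218 with DMSO and 824 and 800 with entinostat. Müllerian markers fitted the label of the line, since 9 of 10 (PAX8, EPCAM, CDH1, MUC16, SOX17, MSLN, FOLR1, CLDN3 and CLDN4) were above 1 CPM (the count scaled to a common library size) in every library. WT1, a defining marker of serous cancer, had only 1 to 20 counts. Markers of other cell types were low but moved with the groups. For BRCA1+ control, BRCA1+ entinostat, BRCA1-null control and BRCA1-null entinostat libraries in turn, the 9 fibroblast markers summed to 13.5 to 18.3, 27.5 to 35.6, 39.3 to 56.0 and 58.3 to 84.1 CPM, with COL3A1, DCN and LUM at 0 counts throughout. In the same order the 4 endothelial markers summed to 9.48 to 16.2, 27.3 to 38.3, 36.6 to 54.3 and 75.1 to 92.9 CPM, of which CDH5 gave up to 84.1. The 6 leukocyte markers summed to 16.6 CPM in both BRCA1+ controls and to 30.9 to 39.2 in BRCA1-null entinostat, with CD3E at 0 to 4 counts. The 4 mesothelial markers summed to between 12.7 and 23.3 CPM, with ITLN1 at 0. The 10 Müllerian markers summed to between 1313 and 1636 CPM. The part of these markers in the keratin values was not tested.

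Simple keratins made up nearly all keratin signal in these cells, and basal keratins were close to absent. Levels between genes were compared per length, as RPKM, the CPM divided by the gene's length in kilobases. KRT18 had the 5th highest mean RPKM of all genes (2975), KRT7 the 9th (2706) and KRT8 the 11th (2409). KRT19 followed at 404 (189th) and KRT80 at 111 (713th). The 10 genes took between 1.36% (95% Wilson interval 1.35 to 1.36, BRCA1-null control 1) and 1.77% (1.77 to 1.78, BRCA1+ entinostat 1) of a library's counts. These intervals cover counting error only.

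KRT6A stood between the simple and the basal members, with a mean of 13.1 RPKM. KRT15, KRT17 and KRT5 had means of 1.19, 0.875 and 0.501 RPKM, and KRT14 had 0.0922. Ranks by RPKM depend on the gene lengths used. For KRT8, KRT18 and KRT7 these were 2265, 1535 and 1702 bases, against 1784, 1413 and 1625 in their GENCODE messages. With the lengths used, the order of the 3 most abundant members differed between the lines. In the BRCA1+ control it was KRT7 (2850 ± 74.2 RPKM, SD, n = 2), KRT18 (2797 ± 60.9) and KRT8 (2119 ± 143), where the libraries of KRT7 and KRT18 overlapped. In the BRCA1-null control it was KRT18 (2738 ± 224), KRT8 (2407 ± 83.5) and KRT7 (2103 ± 398), where those of KRT8 and KRT7 overlapped. KRT19 was 4th, KRT80 5th and KRT6A 6th in all 4 groups, and each was separate from its neighbours in every group.

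**Figure D1:**
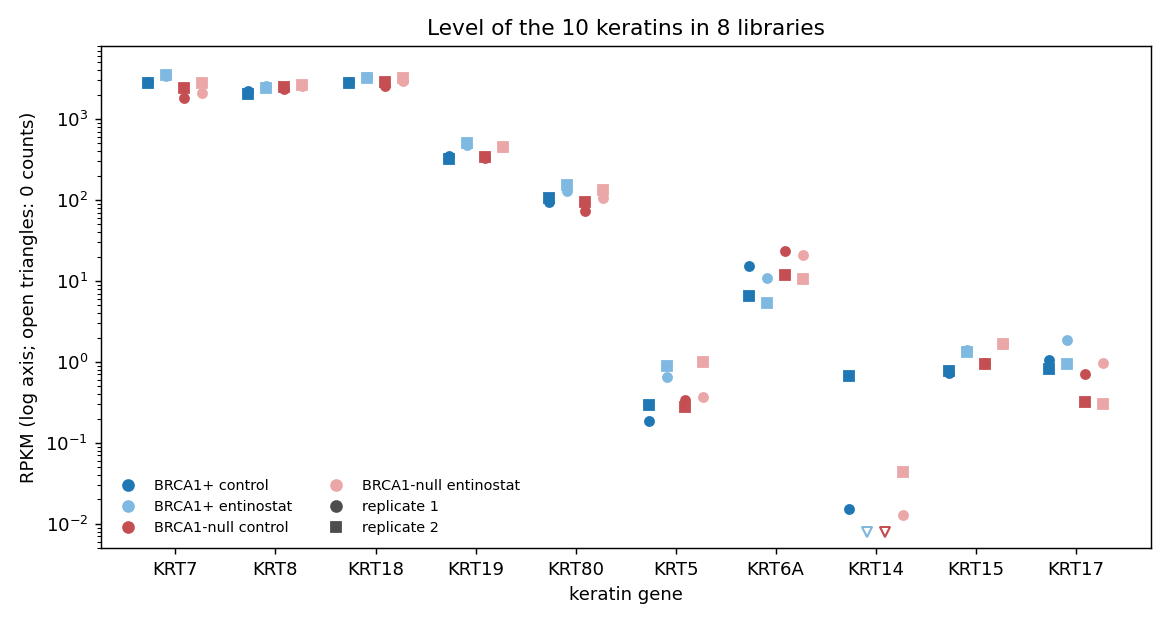
Level of each of the 10 keratins in the 8 libraries, in RPKM on a log axis, with colour for the group, circles for replicate 1 and squares for replicate 2. KRT7, KRT8 and KRT18 lie at the top, KRT19 and KRT80 below them, KRT6A between, and the basal keratins near or under 1 RPKM; open triangles mark libraries with 0 counts of KRT14.

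KRT5 had low counts close to those of the keratin genes beside it. The 6 genes KRT74, KRT73, KRT2, KRT1, KRT77 and KRT76, which follow KRT5 along chromosome 12 together with KRT71 and KRT72, had exactly the count of KRT71 in 36 of 48 pairs of gene and library. KRT72 had the count of KRT71 in none of the 8 libraries, at 1.22 times that count in 7 of them and 1.25 times in BRCA1+ entinostat 2. KRT71 had 18 and 27 counts in BRCA1+ cells given DMSO, 45 and 108 once they were given entinostat, 27 and 27 in BRCA1-null cells given DMSO, and 72 and 90 once these were given entinostat. All 8 values are whole multiples of 9, the number of exons of KRT71. KRT5, in the same order, had 17 and 31, 48 and 94, 36 and 35, and 40 and 96 counts. Thus KRT5 differed from KRT71 by at most 14 counts in 7 of 8 libraries, and was 32 lower in BRCA1-null entinostat 1. It equalled KRT71 in none of the 8 libraries, and was a whole multiple of 9 in 1.

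A second run of genes with counts that moved together, KRT3, KRT4, KRT79 and KRT78, lay next to KRT8. KRT4 had 288 and 5131 counts in BRCA1+ cells with DMSO against 0 and 108 with entinostat, and 7557 and 9504 in BRCA1-null cells with DMSO against 67 and 92 with entinostat. KRT79 had 5130 where KRT4 had 5131, and 9504 where KRT4 had 9504, but 21 where KRT4 had 67, in BRCA1-null entinostat 1. KRT79 and KRT78 had exactly the count of KRT4 in 4 of 16 pairs of gene and library, and KRT78 had 5139 and 9527 counts where KRT4 had 5131 and 9504. KRT3 equalled KRT4 in no library, with 4001 counts where KRT4 had 5131 and 7394 where it had 9504. How reads that span a long gap were counted is not given in the sources used here, and whether such reads gave these equal counts was not tested. Whether the counts of KRT5 are held in common with its neighbours was not tested either. On chromosome 17, KRT14 had 1 and 50 counts in BRCA1+ cells with DMSO, 1 and 3 in BRCA1-null cells with entinostat, and 0 in the other 4 libraries. The library with 50 counts of KRT14, BRCA1+ control 2, was also the only one with counts of KRT9 (48), and had 39 of KRT16, which had at most 8 elsewhere. KRT14 did not pass the filter on low counts and was not tested in the main fit, and a count of 0 allowed up to 0.0946 CPM.

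**Figure D2:**
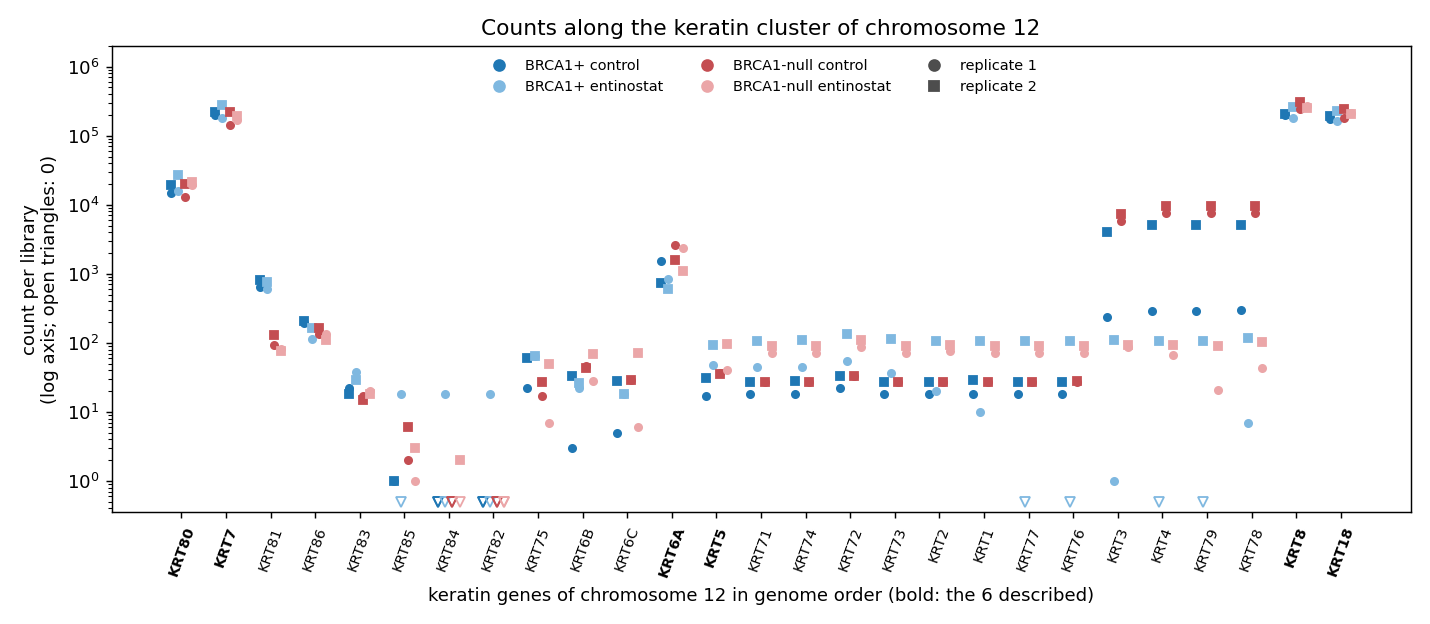
Count of each keratin gene of chromosome 12 in the 8 libraries, in genome order and on a log axis, with the 6 described here in bold. KRT5 sits at the level of KRT71 to KRT76 beside it, with 17 to 96 counts, whereas KRT80, KRT7, KRT6A, KRT8 and KRT18 lie higher. The run of KRT3, KRT4, KRT79 and KRT78 next to KRT8 reaches up to 9527 counts with DMSO, still far below KRT8.

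The response to entinostat was examined within each line. In BRCA1+ cells 4 of the 9 members tested were higher with entinostat (KRT19, KRT15, KRT8 and KRT18) and 0 were lower, at an adjusted p under 0.05 in edgeR's quasi-likelihood test over 17714 genes. In BRCA1-null cells 2 were higher (KRT19 and KRT15) and 0 were lower. Of all genes tested, 14.1% were called in BRCA1+ (8.13% higher) and 10.8% in BRCA1-null (7.57% higher). The median log2 fold change of the 9 members was 0.47 in BRCA1+ and 0.39 in BRCA1-null, beside 0.00041 and 0.019 over all genes. In each line 8 of the 9 fitted changes were positive, the exception being KRT6A. At an unadjusted p under 0.05, 6 members were higher in BRCA1+ and 5 in BRCA1-null, and 0 were lower. Over all genes, 5129 of 17714 in BRCA1+ and 4856 in BRCA1-null had such a p, in either direction. DESeq2's Wald test called 4 higher in BRCA1+, with KRT5 in place of KRT15, 1 higher in BRCA1-null (KRT19) and 0 lower. Of all genes it called 14.1% in BRCA1+ and 9.42% in BRCA1-null.

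KRT19, the smallest type I keratin and a marker of ductal epithelium, rose with entinostat in both lines. It had 508 and 471 CPM in the BRCA1+ control against 709 and 742 in BRCA1+ entinostat. In BRCA1-null cells it had 484 and 505 CPM in the control against 667 and 669 with entinostat. The entinostat libraries lay above all control libraries in both lines. Such a separation of 2 against 2 libraries, here and below, cannot go below p = 0.333 in an exact permutation test. The share of all genes that separate in this way is not given here. The increase was 1.48-fold in BRCA1+ (log2 fold change 0.57 ± 0.05 SE, edgeR adjusted p = 0.00055) and 1.35-fold in BRCA1-null (0.43 ± 0.05, edgeR adjusted p = 0.00278). With each of the 4 libraries of a comparison left out in turn, the edgeR adjusted p reached at most 0.011 in BRCA1+ and 0.0226 in BRCA1-null.

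KRT15, a type I keratin of basal keratinocytes, rose from a level near 1 CPM. It had 1.35 and 1.44 CPM in the BRCA1+ control and 2.62 and 2.41 with entinostat. BRCA1-null cells had 1.78 and 1.73 CPM in the control and 3.09 and 3.04 with entinostat. The groups did not overlap in either line, and the counts behind these values were 54 to 145 per library. The increase was 1.79-fold in BRCA1+ (log2 fold change 0.84 ± 0.20, edgeR adjusted p = 0.0246) and 1.75-fold in BRCA1-null (0.81 ± 0.17, edgeR adjusted p = 0.0197). Leaving out any 1 of the 4 libraries ended the call in both lines, with edgeR adjusted p of 0.102 to 0.114 in BRCA1+ and 0.0603 to 0.0981 in BRCA1-null, while the log2 fold change stayed between 0.78 and 0.90. DESeq2's Wald test did not call it in BRCA1+ (adjusted p = 0.0558) or BRCA1-null (0.0831), nor did a fit of only the BRCA1-null groups (edgeR adjusted p = 0.075).

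KRT8 and KRT18, the simple epithelial pair, rose slightly in BRCA1+ cells. KRT8 had 5030 and 4571 CPM in the BRCA1+ control and 5789 and 5549 with entinostat, 1.18-fold higher (log2 fold change 0.24 ± 0.06, edgeR adjusted p = 0.0248). KRT18 had 4359 and 4227 CPM against 5085 and 4939, 1.17-fold higher (0.22 ± 0.06, edgeR adjusted p = 0.0456). Both entinostat libraries lay above both controls for each gene. The call of KRT8 was lost without BRCA1+ control 2 (edgeR adjusted p = 0.153), BRCA1+ entinostat 1 (0.143) or BRCA1+ entinostat 2 (0.0898), and that of KRT18 without any 1 of the 4 libraries (0.119 to 0.201).

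In BRCA1-null cells the same pair did not pass the test. KRT8 had 5318 and 5585 CPM in the control and 5754 and 6051 with entinostat (log2 fold change 0.11 ± 0.06, edgeR adjusted p = 0.228). KRT18 had 3959 and 4446 CPM against 4562 and 4960 (0.18 ± 0.06, edgeR adjusted p = 0.102). The control and entinostat libraries of neither gene overlapped.

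KRT7, the type II keratin of glandular epithelium, did not pass the test for entinostat in either line. It had 4940 and 4761 CPM in the BRCA1+ control and 5740 and 5971 with entinostat (log2 fold change 0.27 ± 0.13, edgeR adjusted p = 0.22, and 0.00585 in a fit of only these groups). BRCA1-null cells had 3101 and 4059 CPM in the control and 3587 and 4682 with entinostat (0.21 ± 0.13, edgeR adjusted p = 0.362). The groups were separate in BRCA1+ and overlapped in BRCA1-null, where replicate 1 was the lower library in both groups.

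KRT80 did not pass the test in either line, with an adjusted p just above 0.05. It had 368 and 418 CPM in the BRCA1+ control and 497 and 590 with entinostat (log2 fold change 0.47 ± 0.14, edgeR adjusted p = 0.0572). BRCA1-null cells had 289 and 369 CPM in the control and 413 and 519 with entinostat (0.50 ± 0.14, edgeR adjusted p = 0.0526). The groups did not overlap in either line. With a BRCA1-null library left out, its difference in BRCA1+ passed (edgeR adjusted p = 0.0368 and 0.0378 without BRCA1-null control 1 or 2, and 0.0405 and 0.0407 without BRCA1-null entinostat 1 or 2). It also passed there with upper-quartile factors (edgeR adjusted p = 0.0392), with the stricter filter (0.0494) and in a fit of only the groups compared (0.0163), and in BRCA1-null cells with upper-quartile factors (0.0484).

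**Figure D3:**
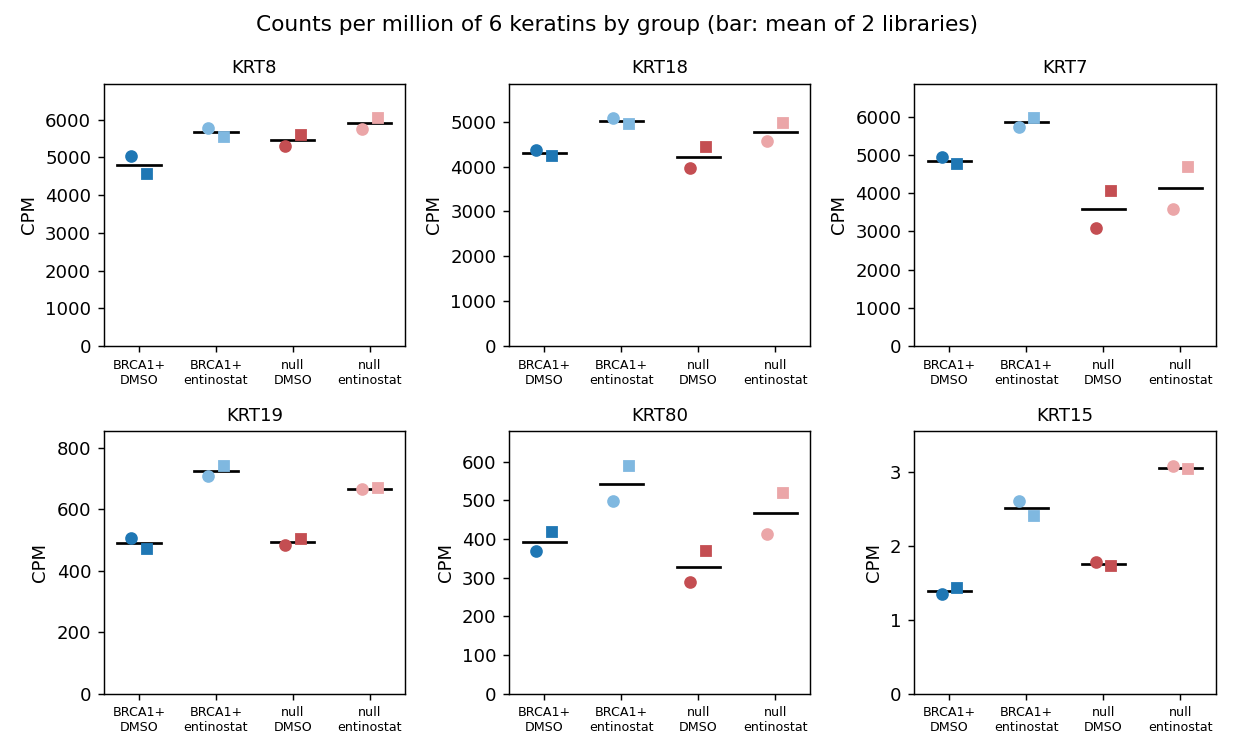
CPM of KRT8, KRT18, KRT7, KRT19, KRT80 and KRT15 in the 8 libraries, with axes from 0, circles for replicate 1, squares for replicate 2 and a bar for the mean of each group. KRT19 and KRT15 are higher in the entinostat libraries of both lines, and KRT7 is lower in BRCA1-null than in BRCA1+ cells.

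The basal and stress keratins gave no further call. KRT5, the basal type II keratin, had 0.425 and 0.675 CPM in the BRCA1+ control and 1.51 and 2.03 with entinostat (log2 fold change 1.69 ± 0.50, edgeR adjusted p = 0.0547). BRCA1-null cells had 0.791 and 0.644 CPM in the control and 0.853 and 2.30 with entinostat (1.11 ± 0.46, edgeR adjusted p = 0.16). With the count of KRT71 subtracted, KRT5 was left with 0 to 9 counts in any library and did not pass the filter on low counts. Its difference in BRCA1+ passed without BRCA1-null entinostat 1 (0.0134 as edgeR adjusted p) or 2 (0.0128), and that in BRCA1-null without BRCA1-null entinostat 1 (0.0389). In BRCA1+ it also passed in DESeq2's Wald test (adjusted p = 0.0166), with upper-quartile factors (edgeR adjusted p = 0.0495) and in a fit of only these groups (0.0145).

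KRT6A, a keratin of wounded epithelium, varied more between replicates than between treatments. BRCA1+ cells had 38.0 and 16.1 CPM with DMSO and 26.3 and 13.0 with entinostat. BRCA1-null cells had 57.5 and 29.0 CPM with DMSO and 50.6 and 25.9 with entinostat. Replicate 1 was the higher library in all 4 groups. KRT17, its usual type I partner, had 1.68 and 1.29 CPM in BRCA1+ cells with DMSO against 2.96 and 1.49 with entinostat, and 1.12 and 0.497 CPM in BRCA1-null cells with DMSO against 1.51 and 0.479 with entinostat. Neither gene passed the test for entinostat, with log2 fold changes of -0.49 ± 0.52 and -0.16 ± 0.46 for KRT6A and 0.52 ± 0.48 and 0.39 ± 0.61 for KRT17 in BRCA1+ and BRCA1-null.

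The lines were then compared under each treatment. BRCA1+ cells are a transduced derivative, and none of the libraries is labelled as an empty-vector line. An effect of BRCA1 thus cannot be told apart from one of transduction or of other differences between the lines. In DMSO, 1 of 9 members was higher in BRCA1-null than in BRCA1+ cells (KRT8) and 1 was lower (KRT7, not called by DESeq2), where 42.2% of all genes tested were called. With entinostat, 0 were higher in edgeR, in DESeq2 or at an unadjusted p under 0.05, and 1 was lower (KRT7), where 39.4% of all genes were called. Of 17714 genes, 8431 had an unadjusted p under 0.05 there, in either direction. The median log2 fold change of the members was 0.014 in DMSO and -0.12 with entinostat, beside 0.012 and 0.019 over all genes. These comparisons share their libraries with those of entinostat.

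KRT7 was lower in BRCA1-null cells under both treatments. The values given above put both BRCA1-null libraries below both BRCA1+ libraries in each treatment. The difference was a log2 fold change of -0.44 ± 0.13 in DMSO (edgeR adjusted p = 0.0271) and -0.50 ± 0.13 with entinostat (edgeR adjusted p = 0.0156). In DMSO the call was lost without BRCA1+ control 1 (edgeR adjusted p = 0.101), BRCA1+ control 2 (0.0741) or BRCA1-null control 1 (0.186), where the log2 fold change was -0.24. With entinostat it was lost without BRCA1+ entinostat 2 (edgeR adjusted p = 0.0795) or BRCA1-null entinostat 1 (0.0917), where the log2 fold change was -0.32.

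KRT8 was 1.14-fold higher in the BRCA1-null control (log2 fold change 0.18 ± 0.06, edgeR adjusted p = 0.0277), a difference that did not pass the test with entinostat (0.06 ± 0.06, edgeR adjusted p = 0.461). The call was lost without BRCA1+ control 2 (edgeR adjusted p = 0.199) or BRCA1-null control 2 (0.15). Its partner KRT18 differed by -0.03 ± 0.06 in DMSO (95% interval -0.17 to 0.11, and 0.01 with upper-quartile factors) and -0.07 ± 0.06 with entinostat (-0.22 to 0.07). KRT19 differed by 0.01 ± 0.05 in DMSO (-0.11 to 0.14) and -0.12 ± 0.05 with entinostat (-0.24 to 0.00). KRT80 was at -0.26 ± 0.14 and -0.22 ± 0.14, KRT15 at 0.33 ± 0.20 and 0.30 ± 0.17, KRT6A at 0.68 ± 0.48 and 1.01 ± 0.51, and KRT17 at -0.91 ± 0.56 and -1.04 ± 0.51 on the log2 scale. For KRT5 the values were 0.35 ± 0.59 and -0.24 ± 0.40. None of these 7 members passed the test in the fit of 4 group means. In a fit of only the entinostat groups KRT6A passed (0.0496 as edgeR adjusted p), and with copies summed KRT17 passed in DMSO (0.0356). Without BRCA1-null entinostat 1 the difference of KRT17 with entinostat was -2.13 (edgeR adjusted p = 0.0384), and without BRCA1-null entinostat 2 that of KRT5 was -1.08 (0.0466).

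**Figure D4:**
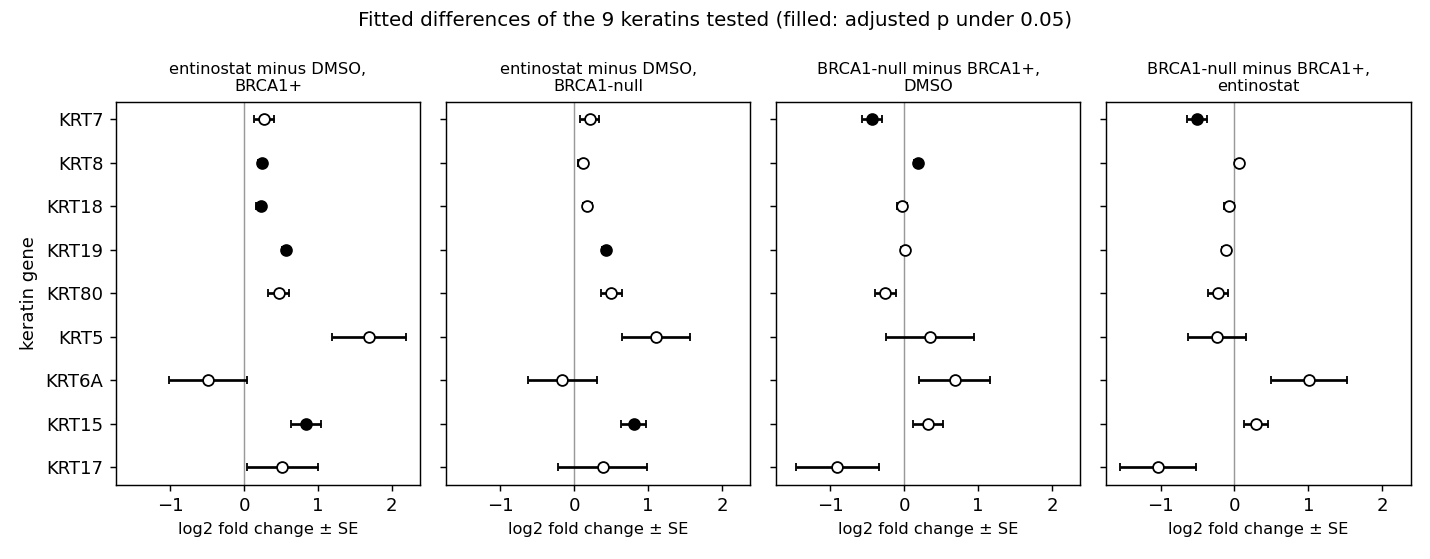
Log2 fold change with its standard error for the 9 members tested, for entinostat in each line (left pair of panels) and between the lines under each treatment (right pair), with filled points for an edgeR adjusted p under 0.05. Entinostat gave 8 of 9 positive values in each line, and KRT7 is the member called lower in BRCA1-null cells under both treatments.

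Whether the response to entinostat differed between the lines was tested as an interaction. Of the 9 members 0 were called, with edgeR adjusted p between 0.967 and 0.997, and 0 had an unadjusted p under 0.05. The share called over all genes was 0% (827 of 17714 at an unadjusted p under 0.05), and DESeq2's Wald test called 11 genes in all and none of the members. The difference in response, BRCA1-null minus BRCA1+, was -0.13 ± 0.08 for KRT19 (95% interval -0.31 to 0.04), -0.13 ± 0.08 for KRT8 (-0.31 to 0.06) and -0.04 ± 0.09 for KRT18 (-0.24 to 0.16). For KRT7 it was -0.06 ± 0.19 (-0.49 to 0.36). Calls in BRCA1+ alone, as for KRT8 and KRT18, are thus not shown to differ from BRCA1-null cells.

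Because type I and type II keratins pair in filaments, the summed RPKM of all type I keratins was divided by that of all type II keratins. In BRCA1+ cells the ratio was 0.607 and 0.599 with DMSO and 0.626 and 0.608 with entinostat. In BRCA1-null cells it was 0.637 and 0.614 with DMSO and 0.718 and 0.663 with entinostat. Type II message exceeded type I message in every library. The mean log2 ratio was -0.61 ± 0.10 (SD, n = 4) in BRCA1-null and -0.71 ± 0.03 (n = 4) in BRCA1+ cells, a difference of 0.11 (exact two-sided permutation test, p = 0.0571, where 0.0286 is the smallest possible). Without BRCA1-null entinostat 1 the difference was 0.064, and with any 1 library left out it lay between 0.064 and 0.14. Over the 10 members alone the difference was 0.14, with the smallest possible p of 0.0286 in the same exact permutation test. The difference was 0.05 within DMSO and 0.16 within entinostat, where 2 against 2 libraries cannot go below p = 0.333 in an exact test. The sum of all type II keratins includes the run of KRT3, KRT4, KRT79 and KRT78, which took 307 to 324 RPKM in BRCA1-null and 13.6 to 207 in BRCA1+ cells with DMSO, and at most 4.65 with entinostat. Over the 10 members alone, a sum chosen here after the values were seen, the difference was 0.12 within DMSO and 0.16 within entinostat. KRT7, called lower in BRCA1-null cells, belongs to the type II sum, with 25.38% to 35.65% of the members' RPKM in a library. The ratio is therefore not a result apart from KRT7, and the ratio without KRT7 was not tested.

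**Figure D5:**
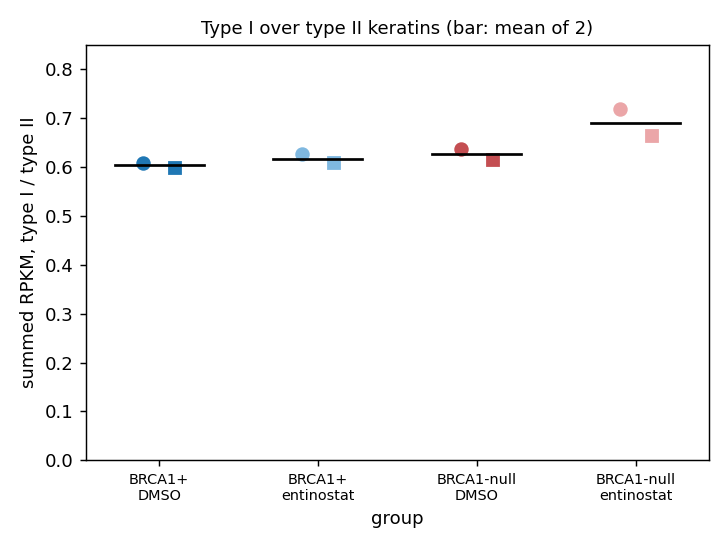
Summed RPKM of all type I keratins over that of all type II keratins in each library, with a bar for the mean of each group and an axis from 0. All 8 ratios lie between 0.599 and 0.718, and the BRCA1-null entinostat libraries are the highest.

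The members did not vary as one set across the 8 libraries. Pearson's r of log2 CPM, given as a description over libraries that share groups and treatments, was 0.90 between KRT18 and KRT19, 0.90 between KRT18 and KRT80, 0.81 between KRT7 and KRT80, and 0.01 between KRT7 and KRT8. KRT6A ran against KRT7 (r = -0.79) and KRT80 (-0.74). Among the other 17713 genes tested, KRT18 was only the 2157th most like KRT8 (r = 0.67). KRT19 was 4933rd for KRT7 (r = 0.50), and KRT17 was 9302nd for KRT6A (r = -0.01). The genes most like KRT19 were LPHN1, NOTCH2NL and MICAL1 (r = 0.99 to 1.00), and those most like KRT7 included AHCYL1 (0.99) and USP9X (0.98). KRT8 was nearest to CARD10, MARCH9 and C19orf12 (0.98 to 0.99), KRT18 to ACTB, RRAS and NAT14 (0.98 to 0.99), and KRT80 to FHL1, PARD3 and BTN2A2 (0.98 to 0.99).

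Of the 45 other keratins, 22 passed the filter. Between the lines in DMSO 2 were lower in BRCA1-null cells, the hair keratins KRT81 (16.8 ± 1.25 CPM in BRCA1+ and 2.20 ± 0.25 in BRCA1-null, log2 fold change -2.93 ± 0.14, edgeR adjusted p = 1.4e-06) and KRT86 (-0.65 ± 0.15, edgeR adjusted p = 0.00623). With entinostat 5 rose and 4 fell in BRCA1+, and 6 rose and 4 fell in BRCA1-null cells. Of these calls, 8 of 9 in BRCA1+ and 9 of 10 in BRCA1-null were of genes in the 2 runs whose counts are described above. These were KRT71, KRT72, KRT73 and KRT74, with KRT2 in BRCA1-null, and KRT3, KRT4, KRT78 and KRT79. The remaining one was KRT13 in both lines. With 1 library left out, 1 to 9 rose and 0 to 4 fell in each line: in BRCA1+ cells 1 rose without either control library or without entinostat 2, and 9 without entinostat 1, and 0 fell without control 2 or either entinostat library. In BRCA1-null cells 1 rose without control 2 or entinostat 2, and 0 fell without entinostat 1 and 2 without entinostat 2. Between the lines in DMSO 5 were higher without BRCA1+ control 2. KRT13, a type I keratin of mucosal stratified epithelium, neighbours KRT15. It had 1.40 ± 0.25 CPM in the BRCA1+ control and 5.18 ± 0.23 with entinostat (log2 fold change 1.91 ± 0.21, edgeR adjusted p = 0.00122).

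Desmosomes and hemidesmosomes are the junctions that keratin filaments hold on to, between cells and to the basement membrane. Of 14 desmosome genes tested, 1 was higher and 7 were lower in BRCA1-null than in BRCA1+ cells in DMSO (median log2 fold change -0.21). The periplakin gene PPL (-0.69 ± 0.09) and the desmocollin DSC2 (-0.67 ± 0.08) were the 2 furthest down, and DSC1 was the one higher (1.26 ± 0.42). Entinostat raised DSC3 (1.09 ± 0.20) and plakoglobin JUP (0.46 ± 0.06) and lowered PKP3 (-0.46 ± 0.07) and PKP2 (-0.25 ± 0.06) in BRCA1+ cells, where 2 rose and 3 fell. In BRCA1-null cells 5 rose and 3 fell. Of 9 hemidesmosome genes, 7 were higher and 2 lower in BRCA1-null cells in DMSO (median 1.25), led by COL17A1 (2.92 ± 0.52), with CD151 (-0.37 ± 0.06) and DST (-0.29 ± 0.06) lower. Entinostat raised 2 of 9 in BRCA1+ cells, LAMB3 (0.96 ± 0.16) and LAMA3 (0.53 ± 0.08), and 3 in BRCA1-null cells. With 1 library left out, the desmosome genes ranged from 0 to 1 higher and 5 to 7 lower between the lines in DMSO, from 1 to 2 raised and 1 to 3 lowered in BRCA1+, and from 1 to 5 raised and 1 to 2 lowered in BRCA1-null cells. The hemidesmosome genes raised in BRCA1-null cells ranged from 1 to 4, with 1 without BRCA1-null control 2 or BRCA1-null entinostat 2.

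Of 22 regulators of keratin genes, 7 were higher and 8 lower in BRCA1-null cells in DMSO (median log2 fold change -0.26). EHF (5.22 ± 0.29) and the AP-1 factor FOSL1 (1.89 ± 0.15) were the 2 furthest up, and SOX2 (-1.69 ± 0.26) and TFAP2C (-1.65 ± 0.21) the 2 furthest down. Entinostat raised 3 and lowered 1 in BRCA1+ cells, and raised 1 and lowered 1 in BRCA1-null cells. The splicing factor ESRP2 was lower in both (-0.56 ± 0.06 and -0.49 ± 0.06), and GRHL3 was higher in BRCA1+ (1.17 ± 0.33). With 1 library left out, 4 to 6 were higher and 6 to 10 lower between the lines in DMSO, 0 to 4 were raised in BRCA1+ (0 without BRCA1+ control 2 or either BRCA1+ entinostat library) and 0 to 1 in BRCA1-null cells.

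Only 6 of 23 cornified envelope genes passed the filter. TGM1 was higher (2.35 ± 0.23) and IVL lower (-1.85 ± 0.43) in BRCA1-null cells in DMSO, and entinostat gave 0 calls in either line in edgeR or DESeq2 (0 of 6 at an unadjusted p under 0.05 in BRCA1+ and 1 in BRCA1-null in edgeR). Of 13 other intermediate filament genes, 2 were higher and 5 lower in BRCA1-null cells. VIM, the filament of mesenchymal cells, had 49.1 ± 4.25 CPM in the BRCA1+ control and 200 ± 0.70 in the BRCA1-null control (2.02 ± 0.08), and NES was also higher (1.20 ± 0.20). Entinostat raised 3 of the 13 in BRCA1+ and 2 in BRCA1-null cells, with VIM at 1.16 ± 0.08 and 0.51 ± 0.07 and NES at 2.11 ± 0.18 and 1.82 ± 0.13. Of 18 genes for keratin turnover and cross-linking, 2 were higher and 5 lower in BRCA1-null cells in DMSO. Entinostat lowered 2 of these in BRCA1+ cells, TCHP (-0.47 ± 0.11) and PLK1 (-0.29 ± 0.08), whereas edgeR and DESeq2 gave 0 calls in BRCA1-null cells, where 3 of 18 had an unadjusted p under 0.05 in edgeR. With 1 library left out, 1 to 5 other intermediate filament genes were lower between the lines in DMSO, 1 to 5 turnover genes were lower and 0 to 3 higher, and entinostat lowered 0 to 2 turnover genes in BRCA1+ cells. The lowest count of both lists in DMSO, 1 lower, came without BRCA1-null control 2. The shares of all genes called in these comparisons, and their numbers at an unadjusted p under 0.05, were those given above.

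Genes beside the keratins on the chromosomes had medians near 0. Of 40 other genes tested within 1 Mb of the chromosome 12 members, 6 rose and 4 fell with entinostat in BRCA1+ cells (median log2 fold change -0.06), and 4 rose and 2 fell in BRCA1-null cells (-0.02). Of 32 beside the chromosome 17 members, 3 rose and 3 fell in BRCA1+ cells (0.06), and 4 rose and 1 fell in BRCA1-null cells (0.05). Between the lines in DMSO, 9 were higher and 11 lower on chromosome 12 and 8 higher and 7 lower on chromosome 17. Over all genes tested, 14.1% were called for entinostat in BRCA1+, 10.8% in BRCA1-null and 42.2% between the lines in DMSO.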

How the data were processed

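Poly(A) RNA of 8 libraries was sequenced on an Illumina HiSeq. The authors aligned reads with TopHat to the human genome (hg19) and deposited raw counts per gene made with NGSUtils, not normalized, with a gene length. Read length, strand and the handling of reads with several matches are not given in the sources used here. An unnamed row with 0 counts was left out.

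The counts were fitted in edgeR 4.0.16 (R 4.3.3) with TMM factors, filterByExpr (17714 of 25369 genes kept), a mean for each of 4 groups over all 8 libraries (4 residual degrees of freedom) and the quasi-likelihood test, with Benjamini-Hochberg adjustment over all genes tested and a threshold of 0.05. CPM and RPKM use the TMM library sizes and the lengths in the table. The procedure was tested on simulated counts. The type ratio was compared by an exact permutation test (scipy 1.17.1). Alternatives were other scalings and filters, DESeq2 1.42.0, a replicate block, fits of only the groups compared, a stricter threshold, each library left out, and summed or subtracted copies.

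The 10 keratins and the 7 gene lists were chosen with earlier results of these data known. Besides the 10 keratins, the text names by rule up to 2 called genes per list, comparison and direction with the largest log2 fold change, and the 3 genes with the highest r (mean log2 CPM of at least 3). Exceptions named for their counts, chosen after these were seen, are KRT9, KRT16 and the keratins from KRT71 to KRT78 along chromosome 12. Some genes that the rule names, and the short keratin sequences, are not reported here.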

Additional observations from a re-analysis of the deposited data

Results flagged for a closer look

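KRT14 moved in opposite directions with entinostat in the 2 lines, which was not tested in the main fit. It fell from 1 and 50 counts to 0 and 0 in BRCA1+ cells, and went from 0 and 0 to 1 and 3 counts in BRCA1-null cells, so that the differences in mean CPM were 0.604 apart. All but 1 of the 8 libraries had at most 3 counts, and the difference rests on BRCA1+ control 2.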

How the results depend on the processing

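Precision is limited by 2 libraries per group and, for KRT5, KRT14, KRT15 and KRT17, by their low counts. Of 90 alternative values for the 5 numbers of members called that were above 0, 66 stayed within 1.5 times the value reported. With the replicate number as a block, 2 members were higher and 3 lower in BRCA1-null cells in DMSO. Under entinostat 1 was higher and 3 were lower. For entinostat against DMSO in BRCA1+ cells, KRT19, KRT15, KRT8, KRT18, KRT80 and KRT5 were higher and 1 member, KRT6A, was lower. In BRCA1-null cells 4 were higher. That fit called 50.6% of all genes between the lines in DMSO and 47.4% under entinostat. For entinostat it called 24.4% in BRCA1+ and 20.5% in BRCA1-null. Between the lines this block called KRT6A (edgeR adjusted p = 4.4e-05 in DMSO and 9.8e-06 with entinostat), KRT80 (0.00161 and 0.00418) and KRT17 (0.0346 and 0.00795). With entinostat it called KRT80 in both lines (0.00035 and 0.000369), KRT6A (0.0053) and KRT5 (0.014) in BRCA1+ and KRT18 (0.047) in BRCA1-null. Deviations of same-numbered libraries correlated at 0.72 between control and entinostat in BRCA1+ and at 0.64 in BRCA1-null. Across the lines they correlated at 0.23 to 0.30. The main fit did not use these numbers, and the labels do not say what a number marks. DESeq2 called 0 lower in DMSO and 1 higher with entinostat in BRCA1-null, where it called 37.1% and 9.42% of all genes. In fits of only the groups compared, 1 was higher in BRCA1-null with entinostat, and 7 in BRCA1+ and 1 in BRCA1-null were higher with entinostat. The share of all genes called is not given here for these fits. It is also not given for fits without the filter, with copies summed or with 1 library left out. Counts of members from such fits thus cannot be set against that share. Without the filter 2 were lower in DMSO, KRT7 and KRT14. The call of KRT14 rests on BRCA1+ control 2, with 50 counts. With copies summed 2 were lower in DMSO, among them KRT17, whose sum then includes KRT14 and KRT16. With 1 library left out, where a lone library is assumed to vary like the other groups, 0 to 1 were higher and 0 to 1 lower in DMSO, 0 to 2 lower with entinostat, and 1 to 6 in BRCA1+ and 1 to 2 in BRCA1-null were higher with entinostat. Hemidesmosome genes higher in BRCA1-null in DMSO ranged from 6 to 7. The type ratio over the 10 members alone, with KRT7 in its type II sum, differed between the lines by 0.137 on the log2 scale. That difference passed, at the smallest possible p of the exact permutation test (0.0286).

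Of 552 alternative log2 fold changes of members, 13 changed sign, all in comparisons that the member did not pass. The sign turned for KRT18 between lines in DMSO with upper-quartile factors (0.012), the stricter filter (0.0033) or a library left out (range -0.12 to 0.071). It turned for KRT17 with entinostat in BRCA1+ with copies summed (-0.25). With a library left out it turned for KRT19 between lines in DMSO (-0.039 and -0.016, range to 0.068), KRT5 between lines with entinostat (0.019 and 0.34, range from -1.08), KRT6A with entinostat in BRCA1+ (range -1.04 to 0.24) and in BRCA1-null (0.38 and 0.24, range from -0.73), and KRT17 in BRCA1-null (-0.13 and -0.71, range to 1.02). The cause was not tested. Upper-quartile factors made 72.5% of the genes called for entinostat in BRCA1+ higher, against 57.6% with TMM. Subtracting neighbours' counts, chosen after the data were seen, changed no count of members called.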
